A study of Mus musculus with 4 samples.

Results

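The 10 genes described here are cytotoxic effector and receptor genes of natural killer (NK) cells and CD8 T cells. Not all are shared, as the receptor genes Ncr1 and Klrb1c are known from NK cells. The 10 are Gzma, Gzmb, Gzmk, Prf1, Nkg7, Ccl5, Ctsw, Klrd1, Klrb1c and Ncr1. They were chosen by name, as 10 of the 31053 genes in each count table, and were followed in every cell of 4 single-cell libraries. The libraries came from FVB mice (labeled VFB) fed chow and grafted under the skin with MycCaP cells, a prostate cancer line from HiMyc mice. A pair of libraries held cells of the tumor graft and another pair stromal/vascular fraction (SVF) cells of subcutaneous adipose tissue (SAT), with mice given PBS (control) or D-CAN in each pair. The D-CAN peptide was designed to seek out adipose stromal cells (ASC) and kill them. Dead cells and red blood cells were removed before capture, no sort for lymphocytes was made, and neither age nor pooling of mice is given in the labels.

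Cytotoxic lymphocytes kill by releasing granules at the contact with a target. Perforin opens the target membrane, and granzymes, a family of serine proteases, pass through and start cell death. NK cells decide through germline-encoded receptors, whereas CD8 T cells need their antigen receptor and usually load granules only after activation. In adipose tissue both are found beside B cells, macrophages and regulatory T cells.

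By the GENCODE vM21 annotation of GRCm38, Gzma (ENSMUSG00000023132) and Gzmk (ENSMUSG00000042385) are on chromosome 13 at 113093825 to 113100981 and at 113171608 to 113225908, close to each other, and Gzmb (ENSMUSG00000015437) is on chromosome 14 at 56258838 to 56262260. Klrd1 (ENSMUSG00000030165) and Klrb1c (ENSMUSG00000030325) lie near each other on chromosome 6, at 129591782 to 129598775 and 128778485 to 128789215, and Nkg7 (ENSMUSG00000004612) and Ncr1 (ENSMUSG00000062524) on chromosome 7. Prf1 (ENSMUSG00000037202), Ccl5 (ENSMUSG00000035042) and Ctsw (ENSMUSG00000024910) are on chromosomes 10, 11 and 19. RefSeq promoters (GRCm38.p6) were at hand for 7 of the 10 genes, and the 250 bases before the RefSeq start (which can differ from the GENCODE start) of 3 of them are shown, 5′ to 3′ on the strand of the gene. Ncr1 and Gzma are shown because NK-like cells held most of their transcripts, and Nkg7 because it was found in most cells of both cytotoxic classes.
Ncr1, chr7:4337465-4337714, plus strand: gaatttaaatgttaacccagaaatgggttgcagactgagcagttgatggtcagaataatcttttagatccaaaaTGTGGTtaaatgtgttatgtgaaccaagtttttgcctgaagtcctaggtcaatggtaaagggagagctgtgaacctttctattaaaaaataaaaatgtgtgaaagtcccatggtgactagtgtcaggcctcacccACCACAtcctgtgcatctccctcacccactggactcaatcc
Gzma, chr13:113100982-113101231, minus strand: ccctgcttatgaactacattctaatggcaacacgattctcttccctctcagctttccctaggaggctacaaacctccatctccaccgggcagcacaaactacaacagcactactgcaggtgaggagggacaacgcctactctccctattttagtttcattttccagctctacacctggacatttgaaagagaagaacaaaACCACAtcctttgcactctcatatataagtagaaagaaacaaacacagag
Nkg7, chr7:43436888-43437137, plus strand: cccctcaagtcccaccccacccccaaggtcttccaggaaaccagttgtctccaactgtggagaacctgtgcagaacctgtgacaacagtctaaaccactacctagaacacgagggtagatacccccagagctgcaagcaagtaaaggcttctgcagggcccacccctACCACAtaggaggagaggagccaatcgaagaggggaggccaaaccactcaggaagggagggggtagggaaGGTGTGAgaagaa
Capitals mark matches, on either strand, to the letters TGTGGT, bound by RUNX factors, and GGTGTGA, bound by T-box factors such as those encoded by Tbx21 and Eomes. No matches overlapped. Ncr1 had the RUNX letters with first bases at -176 and -41 from the start, Gzma had them at -50, and Nkg7 had the RUNX letters at -83 and the T-box letters at -13. Of the 7 promoters, 6 held the RUNX letters and 2 the T-box letters, while 14.2% and 3.31% of the 27025 promoters of all genes did. A match is only a description of letters in this window.

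After cells with under 200 genes were left out, 2841 SAT control, 1897 SAT D-CAN, 2761 tumor control and 1487 tumor D-CAN cells were kept, with medians of 1707, 2950, 3578 and 5232 UMIs per cell. A UMI (unique molecular identifier) marks 1 captured RNA molecule. Libraries shared at most 2 cell barcodes. There was 1 library per tissue and treatment, so no group had replicates. An exact permutation of 2 SAT against 2 tumor libraries could not give a p below 0.33, and no test between libraries was run. The intervals below are exact 95% intervals that cover counting error only, not the spread between mice. Those of CPM and of ratios take UMIs as independent, so they also leave out the spread between cells. Cells were clustered with the 10 genes kept out of the clustering, and the T and NK clusters held 30.2% of SAT control, 43.2% of SAT D-CAN, 0.978% of tumor control and 1.88% of tumor D-CAN cells. Of these clusters, 1 of 85 cells was led by immunoglobulin genes and had Cd3 UMIs in 8.24% of its cells. B-like cells were 20.6% of SAT control and 32.3% of SAT D-CAN cells. An endothelial-like cluster with 174 SAT control, 10 SAT D-CAN, 82 tumor control and 38 tumor D-CAN cells was led by Glycam1. Whether the SAT lymphocytes were resident in adipose tissue or came with a lymph node was not tested.

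The cluster called NK-like had 11 of 13 NK markers detected and held 41 SAT control cells (1.44% of the library, interval 1.04 to 1.95) and 30 SAT D-CAN cells (1.58%, interval 1.07 to 2.25). The adaptor gene Tyrobp was found in 82.9% and 70% of them and Cd8a in none. The label holds only in part, because 41.9% of the cluster had a UMI of Cd3d, Cd3e or Cd3g, and Trbc1 was found in 87.8% and 83.3% of its SAT cells. Trac was found in 7.32% and 10%, and the gamma-delta T gene Trdc in 29.3% and 20%. The NK marker Klra8 was found in only 4.88% and 13.3%. Any of 6 markers of group 2 innate lymphoid cells was found in 41.5% and 60%, although 4 and 3 of the 6 had no UMI there. The CD8 T-like cluster held 79 (2.78%) and 95 (5.01%) SAT cells, with Cd8a or Cd8b1 in 70.3% of the cluster and Cd4 in 2.86%. Of its SAT cells 45.6% and 34.7% had the NK marker Eomes, against 24.4% and 36.7% of NK-like cells. Any of those innate lymphoid markers was found in 26.6% and 26.3%, with 4 of the 6 at 0 in each library. Whether the NK-like cluster holds gamma-delta T or innate lymphoid cells was not tested. In the tumors the NK-like cluster had 1 and 2 cells and the CD8 T-like cluster 1 and 0, so these classes were compared in SAT only.

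Every gene of the 10 that gave enough UMIs to compare was higher in NK-like than in CD8 T-like cells of SAT, in both libraries. The gap was widest for Gzma and Ncr1, where CD8 T-like cells had almost no transcripts, and narrowest for Ctsw and Nkg7, which most cells of both classes carried. With at least 20 UMIs over both classes required, 7 genes were compared in each library. Gzma and Ncr1 in both libraries, and Prf1 in control, reached 20 UMIs through the NK-like side alone. Gzma had 80 and 55 UMIs there against 2 and 3, and Ncr1 87 and 93 against 9 and 2. As the NK-like class had fewer UMIs in total, such genes could only come out higher. The counts that follow are therefore set in part by the filter. In the control library 6 of 7 were higher by 2-fold or more, beside 15% of the 2357 genes compared, and none was lower by that much, beside 4.16% of all genes. In the D-CAN library 7 of 7 were higher by 2-fold or more, beside 15.7% of 2954 genes, and again none was lower, beside 5.01%. The median log2 ratio of the 7 genes was 1.92 and 2.19, and that of all genes 0.28 and 0.34. With that median taken off, Nkg7 (0.89) and Ctsw (0.81) of D-CAN were under 2-fold. CD8 T-like cells were the deeper class, at 4264 and 5082 UMIs per cell against 2541 and 3232.5.

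**Figure D1:**
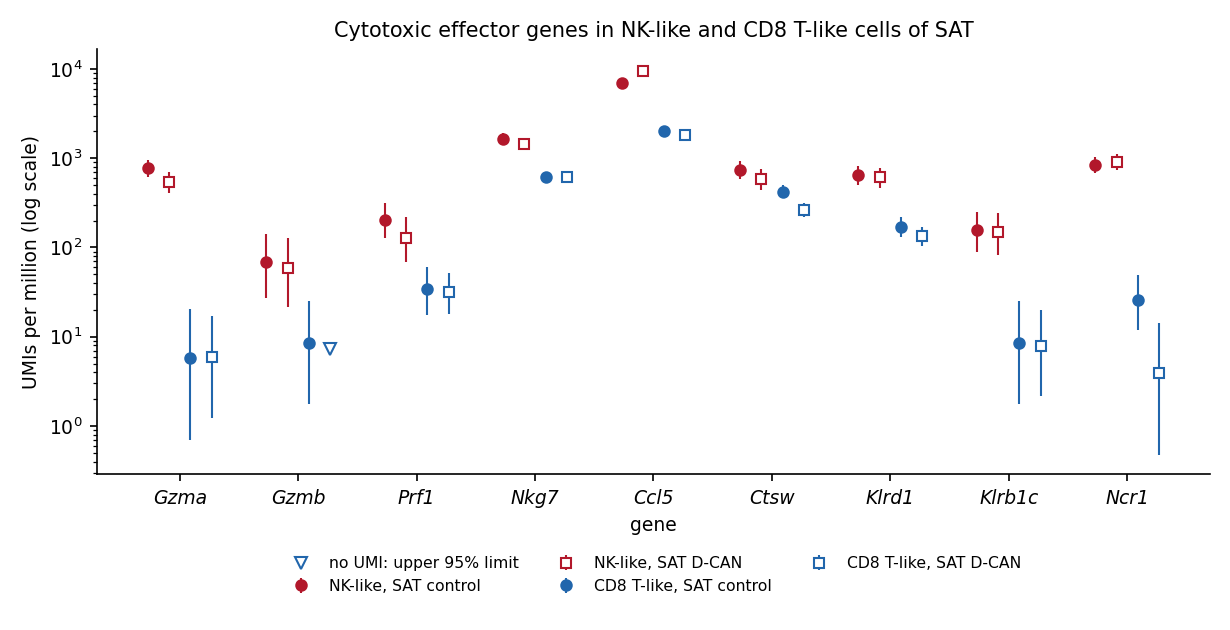
Level of 9 of the genes (Gzmk had no UMI in either class) in NK-like (red) and CD8 T-like (blue) cells of SAT control (filled circles) and SAT D-CAN (open squares), in CPM (UMIs per 1000000 UMIs of the class) on a log axis. Bars are exact 95% Poisson intervals, and the open triangle is the upper limit where no UMI was found. For each gene the red points lie above the blue ones, by the most for Gzma and Ncr1.

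Among the granule proteases, Gzma, a granzyme that cleaves after basic residues, stood at 775 CPM (UMIs of the gene per 1000000 UMIs of the class) in NK-like cells of SAT control (interval 615 to 965) and 541 CPM in SAT D-CAN (407 to 704). In CD8 T-like cells it stood at 5.71 and 5.91 CPM, from 2 and 3 UMIs. The log2 ratio of NK-like over CD8 T-like cells was 6.77 (interval 5.18 to 10.16) and 6.31 (4.89 to 8.84). Gzma was uneven among NK-like cells, since 8 of 41 and 7 of 30 cells had it, and 1 SAT D-CAN cell held 40 of the 55 UMIs. Without that cell the SAT D-CAN level was 153 CPM.

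Gzmb, the granzyme that cleaves after aspartate and activates caspases, was sparse in both classes. NK-like cells had 7 UMIs in 4 cells in control (67.8 CPM) and 6 UMIs in 2 cells in D-CAN (59.0 CPM), and CD8 T-like cells had 3 UMIs and 0. The control ratio was 2.86 on the log2 scale (interval 0.85 to 5.57). In D-CAN the level was 9.98-fold higher in NK-like cells when the side at 0 was set at 3 UMIs. The exact lower limit of that ratio, which also covers the error of the 6 UMIs, was 2.55 on the log2 scale. Gzmk, a tryptase-like granzyme, gave 1 UMI in all 4 libraries, in a SAT control cell of another T and NK cluster. Its 0 of 71 NK-like and 0 of 174 CD8 T-like SAT cells allow shares with a UMI of up to 4.23% and 1.72%.

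Prf1, which encodes perforin, stood at 204 CPM (126 to 311) and 128 CPM (68.0 to 218) in NK-like cells of SAT control and D-CAN. CD8 T-like cells had 34.3 CPM (17.7 to 59.9) and 31.5 CPM (18.0 to 51.2). The log2 ratios were 2.55 (1.48 to 3.73) and 2.03 (0.84 to 3.17), from 21 against 12 and 13 against 16 UMIs. Thus 12 of 41 and 9 of 30 NK-like cells had perforin RNA captured, as did 11 of 79 and 14 of 95 CD8 T-like cells.

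Nkg7, a membrane protein of cytotoxic granules, and Ctsw, a cysteine protease of the same cells, were the genes that the classes shared most. Nkg7 was found in 92.7% and 90% of NK-like and in 83.5% and 83.2% of CD8 T-like cells, at 1648 and 1445 CPM against 617 and 620 CPM. Its log2 ratio was 1.42 (1.12 to 1.71) and 1.22 (0.93 to 1.51), and its promoter was the only one of the 7 with both the RUNX and the T-box letters. The ratio was 1.14 and 0.89 once the median of all genes was taken off. With mitochondrial and ribosomal genes left out of the totals it was 1.03 and 0.83, the latter under 2-fold. Ctsw stood at 737 and 580 CPM in NK-like and 423 and 264 CPM in CD8 T-like cells. The ratio was 0.81 (0.38 to 1.21) in control, the only value of the 7 under 2-fold, and 1.14 (0.67 to 1.59) in D-CAN.

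Ccl5, a chemokine that draws T cells, macrophages and other leukocytes, was found in nearly every NK-like cell and in most CD8 T-like cells. NK-like cells stood at 6969 CPM (6468 to 7497) in control and 9464 CPM (8876 to 10081) in D-CAN, and 39 of 41 and 28 of 30 cells had it. CD8 T-like cells stood at 2008 CPM (1862 to 2162) and 1796 CPM (1681 to 1916), with a UMI in 62.0% and 58.9%. The log2 ratios were 1.80 (1.64 to 1.95) and 2.40 (2.27 to 2.53).

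The receptor genes separated the classes further. Ncr1 encodes NKp46, an activating receptor, and stood at 843 CPM (675 to 1040) and 914 CPM (738 to 1120) in NK-like cells, where 65.9% and 76.7% of cells had it. CD8 T-like cells had 9 UMIs in control, all in 1 cell, and 2 UMIs in D-CAN, also in 1 cell, which is 25.7 and 3.94 CPM. The log2 ratios were 4.97 (4.05 to 6.21) and 7.54 (5.97 to 10.93). Without those 2 cells no Ncr1 UMI was left in the class. The Ncr1 promoter printed above held the RUNX letters and not the T-box letters.

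Klrd1 encodes CD94, which pairs with NKG2 receptors to read nonclassical class I molecules. Its levels were 649 and 609 CPM in NK-like and 171 and 134 CPM in CD8 T-like cells, and the log2 ratios were 1.92 (1.40 to 2.45) and 2.19 (1.67 to 2.70). The gene was found in 73.2% and 73.3% of NK-like and 48.1% and 43.2% of CD8 T-like cells. Klrc1, which encodes the partner NKG2A, was found in 41.5% and 56.7% of NK-like and 7.59% and 8.42% of CD8 T-like cells. Klrb1c encodes NK1.1, the antigen by which NK cells of some strains are stained. It stood at 155 and 147 CPM in NK-like cells (14 of 41 and 10 of 30 cells) and 8.57 and 7.88 CPM in CD8 T-like cells, with ratios of 4.0 (2.37 to 6.60) and 4.10 (2.58 to 6.28) from under 20 UMIs.

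Every NK-like SAT cell (100% in both libraries) had a UMI of a T marker, counting Trbc1 and Trbc2. Values were also taken in the 24 SAT control and 16 SAT D-CAN cells with no UMI of Cd3d, Cd3e, Cd3g or Trac. These cells still had Trbc1 or Trbc2, so they are not free of T cell receptor transcripts. Ncr1 stood there at 1018 and 1101 CPM, against 611 and 763 CPM in the 17 and 14 cells with such a UMI. Nkg7 stood at 1832 and 1277 CPM against 1402 and 1580 CPM. Gzma stood at 746 and 132 CPM against 814 and 870 CPM, and the SAT D-CAN cell with 40 Gzma UMIs was among the cells with a Cd3 or Trac UMI. The cells on both sides of this split therefore had the NK receptor and granule transcripts.

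Most CD8 cells of SAT were not in the CD8 T-like cluster. A gate of a T marker and Cd8a or Cd8b1 without Cd4 took 224 SAT control and 235 SAT D-CAN cells, of which 56 and 64 were in the CD8 T-like cluster and 144 and 166 in other T and NK clusters outside it. In those outside, Nkg7 was found in 56.3% and 71.1%, Ctsw in 42.4% and 48.2%, Klrd1 in 14.6% and 23.5%, Ccl5 in 11.8% and 15.1%, and Prf1 in 6.25% and 9.04%. The gated cells inside the cluster had Nkg7 in 85.7% and 96.9% and Ccl5 in 58.9% and 64.1%. Their median depths were 4651 and 5764.5 UMIs per cell inside and 3171 and 3893 outside.

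Other genes of the cytotoxic pathway were taken from a list of 44, all of which were in the tables and 4 of which are also NK markers. In control SAT 22 had enough UMIs, of which 16 were higher in NK-like cells by 2-fold or more and 1 was lower, and in D-CAN SAT 12 of 19 were higher and 1 was lower. Leaving out the NK markers, the counts were 13 and 1 of 18, and 9 and 1 of 16. Of all genes, 15% and 15.7% were higher and 4.16% and 5.01% lower by that much. The highest were Gzmc, from 29 UMIs of 1 control cell, Ccl3, an inflammatory chemokine (log2 ratios 4.82 and 6.33), Klrk1, which encodes NKG2D (4.71 and 5.36), and, in D-CAN, Xcl1, a chemokine for cross-presenting dendritic cells (4.04). Klrk1 and Xcl1 are among the markers that named the class. The lowest were Gzmm, a granzyme that cleaves after methionine or leucine (-1.98 in control, interval -5.39 to -0.31, and -0.79 in D-CAN, -2.60 to 0.41), Cst7, an inhibitor of the protease that activates granzymes (0.00 and -1.18), and Tcf7, a factor of memory-like T cells (0.12 and -0.77). Gzmm had 33 and 47 UMIs in CD8 T-like against 2 and 5 in NK-like cells. Gzmm and Cst7 reached 20 UMIs through the CD8 T-like side alone in both libraries. Ccl3 and Klrk1 in both libraries, and Gzmc in control, did so through the NK-like side alone.

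Over 34 combinations of class and library with at least 20 cells, the genes whose log2 level followed the mean of the 10 most closely were Ifng (Pearson r 0.94), Xcl1 and Tbx21 (0.92 each), Klrc1 (0.92) and Eomes (0.90), out of 7145 candidates. This is a description, since classes of 1 library share its depth and free RNA. Xcl1 and Eomes are also among the NK markers that named the NK-like class, so their likeness is partly built in. Within the 10, Ctsw (0.92), Nkg7 (0.89), Klrd1 (0.88) and Prf1 (0.87) followed the mean of the others most closely, and Gzmk (0.05), Gzmb (0.60), Ccl5 (0.69) and Klrb1c (0.70) least.

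The genes differed in how far they were held by NK-like cells. Of all SAT transcripts, 79.4% of Gzma (170 UMIs) and 76.6% of Ncr1 (235 UMIs) were in NK-like cells, which were 71 of 4738 SAT cells. For Klrb1c it was 42.5% of 73 UMIs, for Klrd1 30.1% of 429, for Prf1 22.7% of 150 and for Nkg7 19.8% of 1603. CD8 T-like cells held 34.4% of Ctsw, 33.1% of Nkg7, 29.8% of Klrd1 and 18.7% of Prf1. Gzmb and Ccl5 lay mainly elsewhere.

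**Figure D2:**
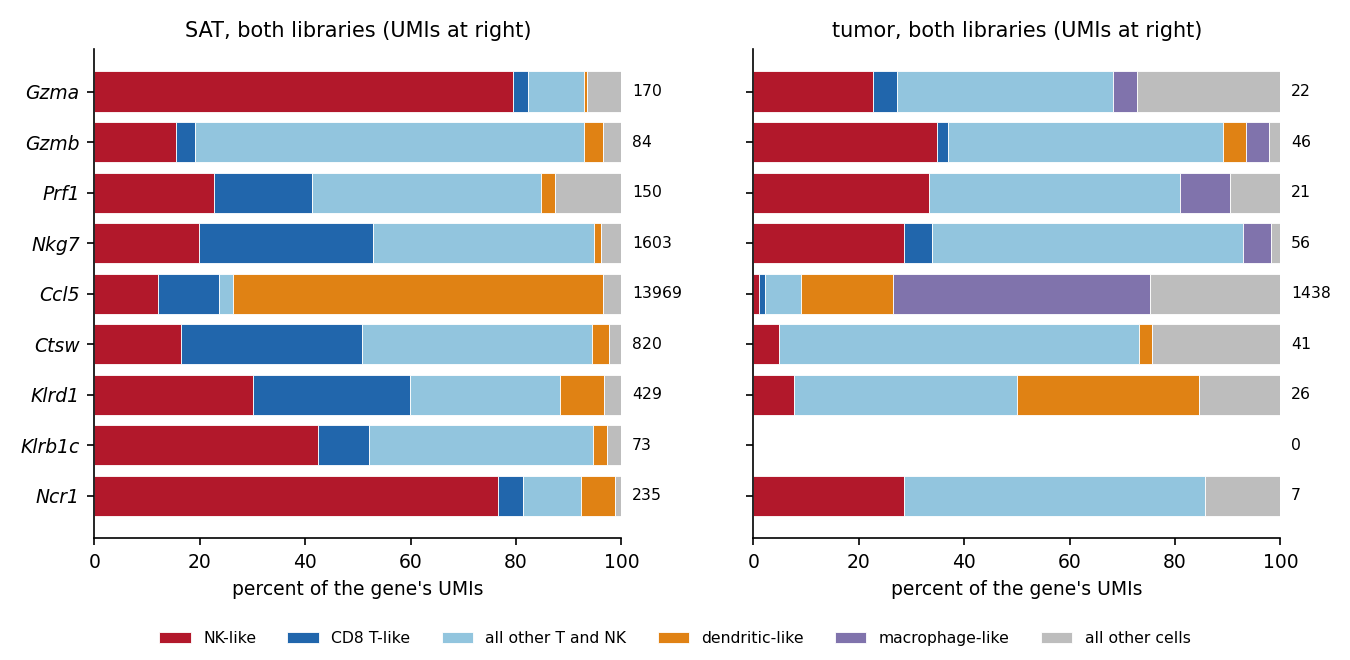
Share of each gene's UMIs by class of cells, in percent, over both SAT libraries (left) and both tumor libraries (right), with the number of UMIs at the right of each bar. In SAT the NK-like part is 79.4% for Gzma and 12% for Ccl5, whose largest part (70.3%) is dendritic-like, and in the tumors 48.7% of Ccl5 is macrophage-like.

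Dendritic-like cells held 59.5% of Ccl5 UMIs in SAT control and 76.3% in SAT D-CAN. Within them the transcript followed Fscn1, a marker of mature migratory dendritic cells. Of the dendritic-like cells with a Fscn1 UMI, 59 of 64 in control and 32 of 33 in D-CAN had Ccl5, at 12248 and 27074 CPM. Of those without, 28 of 98 and 8 of 54 had it, at 1310 and 1189 CPM. These cells differed in depth, with medians of 1382 and 7294 UMIs per cell with Fscn1 and 874 and 2384 without. Few cells carried the D-CAN value, as 1 cell had 1348 Ccl5 UMIs. Ccr7, of the dendritic marker list, split the cells less in control. Ccl5 was in 34 of 42 control cells with Ccr7 (8733 CPM) and 53 of 120 without (5998 CPM). In D-CAN the counts were 32 of 38 (22436 CPM) and 8 of 49 (2014 CPM). With a Ccl22 UMI, 30 of 32 and 23 of 24 cells had Ccl5, and without, 57 of 130 and 17 of 63. The plasmacytoid marker Siglech went with few Ccl5 cells, 0 of 14 in control and 1 of 12 in D-CAN, although that 1 cell held 244 UMIs and put the D-CAN cells with Siglech at 2784 CPM.

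Macrophage-like cells of the tumors were a further source of Ccl5, at 377 CPM (61 of 331 cells) in tumor control and 496 CPM (37 of 248 cells) in tumor D-CAN. They held 48.9% and 48.6% of the Ccl5 UMIs of these libraries. Clusters outside T and NK that got no class name held 30.9% and 4.26%. In SAT, 1 of 23 and 1 of 8 macrophage-like cells had it. Cancer-like cells stood at 1.53 and 9 CPM, the latter with 52 of 114 UMIs in 1 cell. B-like cells of SAT, which should lack the transcript, stood at 8.32 and 8.99 CPM (1.54% and 2.29% of cells, at median depths of 2038 and 2600 UMIs).

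**Figure D3:**
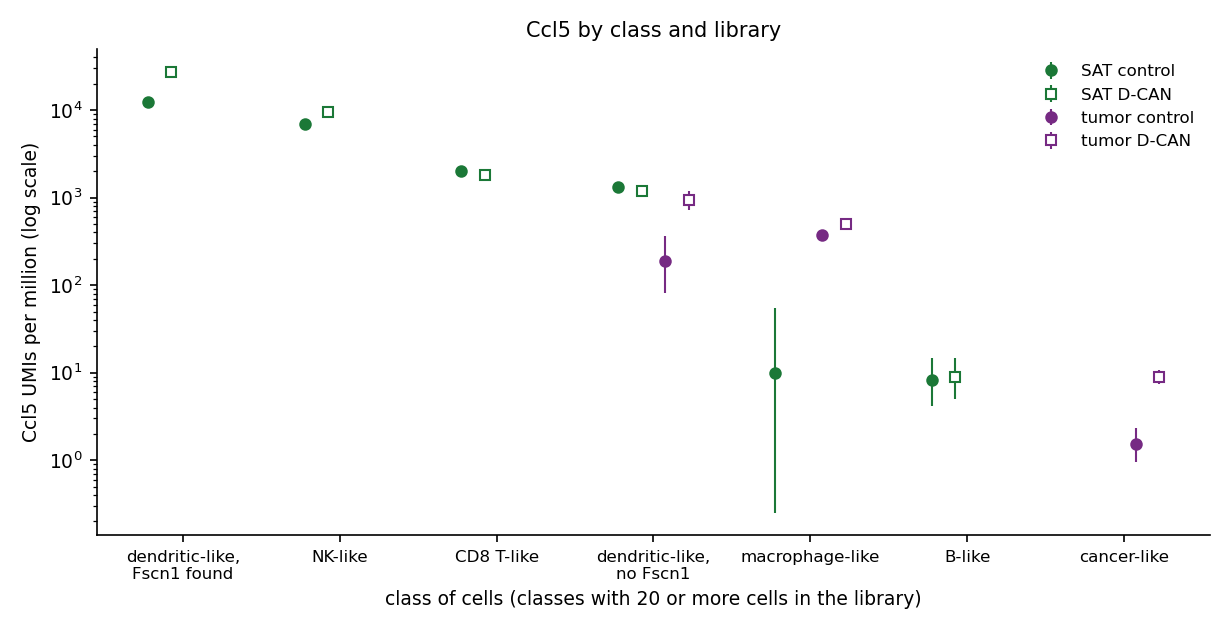
Ccl5 in CPM (UMIs per 1000000 UMIs of the class, log axis) for SAT (green) and tumor (purple), control (filled circles) and D-CAN (open squares), with exact 95% Poisson intervals, for classes of at least 20 cells. Fscn1+ dendritic-like cells are highest at 12248 and 27074, NK-like cells follow at 6969 and 9464, and B-like and cancer-like cells lie between 1.53 and 9.

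Klrd1 was also found outside the T and NK clusters. Dendritic-like cells held 8.39% of its SAT UMIs. Siglech+ cells had it in 6 of 14 in control and 6 of 12 in D-CAN. Of the others 3 of 148 and 5 of 75 had it. Cd209a+ cells had it in 5 of 13 and 2 of 4, and those without Cd209a in 4 of 149 and 9 of 83. Dendritic-like cells with Klrd1 were deeper, at medians of 4993 and 8312 UMIs against 976 and 4358 without. Whether they were doublets was not tested. Gzmb was found in the CD4 T-like cluster, led by Icos, Ctla4 and Areg with Foxp3, genes known from regulatory T cells. There 5 of 29 and 4 of 26 cells had it, at 107 CPM (48.8 to 203) and 102 CPM (46.5 to 193), and the cluster held 21.4% of SAT Gzmb against 15.5% in NK-like cells. Another 29 Gzmb UMIs of SAT control lay in 6 of 77 cells of a cluster with Mki67 in 35.7% of its cells, whose leading genes included the neutrophil genes Camp and S100a8. Klrb1c was found in 2 of 17 and 11 of 24 gamma-delta T-like cells, whose leading gene was Il17a. Ncr1 was found in 1 of 17 and 4 of 24 of them. That name too holds only in part, as 33.3% of the cluster had Trdc, 28.6% Trac and 21.4% Cd4.

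Co-detection asks how many of the 10 genes a single cell carried. To set depth aside, each cell was thinned at random to 1000 UMIs, which left out 2 and 1 NK-like and 2 and 0 CD8 T-like cells. NK-like cells then carried a mean of 3.59 genes in control and 3.52 in D-CAN, and CD8 T-like cells 1.57 and 1.39. At least 3 genes were found in 28 of 39 (71.8%, interval 55.1 to 85.0) and 21 of 29 (72.4%, 52.8 to 87.3) NK-like cells. In CD8 T-like cells it was 12 of 77 (15.6%, 8.32 to 25.6) and 18 of 95 (18.9%, 11.6 to 28.3). These intervals cover the counting of cells within 1 library, and cells are not replicates. Without thinning the shares with at least 3 genes were 95.1% and 96.7% against 69.6% and 62.1%. The 10 genes include Ncr1 and Klrb1c, known from NK cells, so the list itself enters the gap. Klrb1c was in 12.8% and 13.8% of NK-like against 1.30% and 3.16% of CD8 T-like cells at 1000 UMIs. At 1000 UMIs B-like cells, which should lack the 10 genes, had any given one in at most 0.529% and 1.01% of cells, and unthinned they had Ccl5 in 1.54% and 2.29%. No B-like cell of 567 and 596 had 3 genes at 1000 UMIs, and 0.778% and 0.756% of the cells in unnamed T and NK clusters did.

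**Figure D4:**
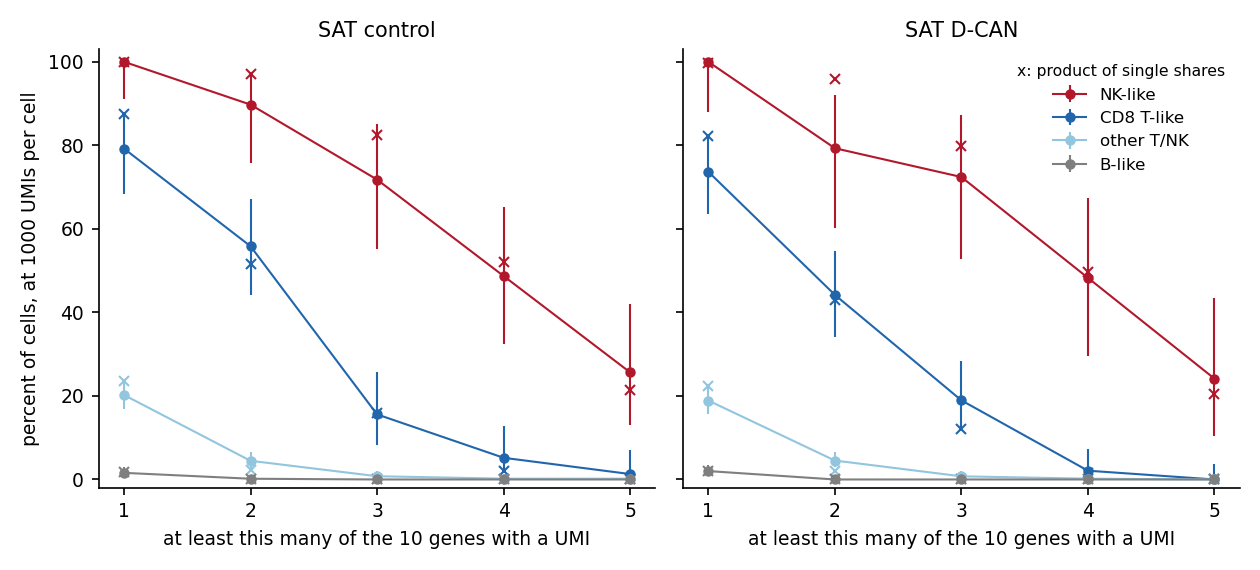
Percent of cells with at least 1 to 5 of the 10 genes after thinning to 1000 UMIs per cell, in SAT control (left) and SAT D-CAN (right), with exact 95% binomial intervals. Crosses give the share that the product of single-gene shares would give. At 3 genes NK-like cells stand at 71.8% and 72.4%, CD8 T-like cells at 15.6% and 18.9%, and B-like cells at 0.

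The product of the single-gene shares, that is, genes scattered over cells without regard to each other, would give 3 genes in 82.4% and 79.8% of NK-like and in 15.9% and 12.1% of CD8 T-like cells. Gene by gene at 1000 UMIs, Nkg7 was found in 71.8% and 72.4% of NK-like and 53.2% and 38.9% of CD8 T-like cells, and Ncr1 in 43.6% and 48.3% against 1.30% and 1.05%. Without thinning, Gzma and Prf1 were found together in 5 of 41 and 5 of 30 NK-like cells, where the product gives 2.34 and 2.1 cells. Nkg7 and Klrd1 were found together in 36 of 79 and 41 of 95 CD8 T-like cells, against 31.7 and 34.1 by the product. For Klrd1 in SAT D-CAN this means that each of the 41 cells with it also had Nkg7. Not every pair exceeded the product. Gzma and Ctsw were together in 7 and 4 NK-like cells without thinning, against 6.83 and 5.6. At 1000 UMIs per cell, Gzma and Prf1 were together in 3 and 4 NK-like cells, against 0.897 and 0.828 by the product. Nkg7 and Klrd1 were together in 5 CD8 T-like cells of control, against 5.86, and in 9 of D-CAN, against 6.23, so in control the excess was not seen at that depth.

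The comparison of D-CAN with control within SAT asks whether the treatment went with another level of these genes per class. With 1 library per arm the treatment and the library cannot be told apart. In NK-like cells none of 8 genes with at least 20 UMIs passed 2-fold, beside 2.47% of 1296 genes that were higher and 3.55% that were lower. In CD8 T-like cells none of 5 did, beside 2.91% and 2.99% of 3707 genes. Ccl5 was higher in NK-like cells of D-CAN by 0.44 on the log2 scale (0.30 to 0.58) and lower in CD8 T-like cells (-0.16, -0.30 to -0.02), although the latter was 0.33 when 20 principal components were used for clustering. Ctsw was lower in CD8 T-like cells (-0.68, -1.03 to -0.33), and its NK-like value was -0.34 (-0.86 to 0.16).

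Gzma in NK-like cells was -0.52 (-1.04 to -0.01), and 1 D-CAN cell with 40 of the 55 UMIs kept it from being lower, as without the top cell of each library it was -1.79 (-2.75 to -0.98). The other NK-like values had intervals that include 0, namely Prf1 at -0.65 (-1.79 to 0.39), Nkg7 at -0.19 (-0.52 to 0.14), Klrd1 at -0.09 (-0.61 to 0.43), Klrb1c at -0.07 (-1.19 to 1.04) and Ncr1 at 0.12 (-0.32 to 0.55). In CD8 T-like cells Prf1 was at -0.14, Nkg7 at 0.01 and Klrd1 at -0.36, again with 0 inside the interval. Of the other pathway genes, 1 of 19 was higher and 3 were lower by 2-fold in NK-like cells, beside 2.47% and 3.55% of all genes. In CD8 T-like cells 0 of 16 passed 2-fold, beside 2.91% and 2.99%. The higher gene in NK-like cells was the chemokine gene Ccl4 (1.57, 1.15 to 2.02). The lower ones were Gzmc, from the 29 UMIs of 1 control cell against 0, Serpinb9, an inhibitor of granzyme B (-1.94, -4.10 to -0.45), and Tcf7. The Tcf7 ratio was -1.01 (-2.17 to 0.01), and its interval includes 0. The highest in CD8 T-like cells were Ctsc, the protease that activates granzymes (0.93, -0.22 to 2.36), and Srgn, the granule proteoglycan (0.38, 0.13 to 0.65).

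Over whole SAT libraries, Gzmb had 62 UMIs in control and 22 in D-CAN, a log2 ratio of -1.63 (-2.42 to -0.93), and 29 of the 62 were in the Mki67+ cluster named above. Ccl5 was 0.71 (0.66 to 0.76), Gzma -0.53 (-0.99 to -0.08), Ncr1 -0.07 (-0.45 to 0.31) and Prf1 0.00 (-0.48 to 0.48). In dendritic-like cells Ccl5 was 0.80 (0.74 to 0.86), where median depth was 997.5 UMIs per cell in control and 5250 in D-CAN, and the part of depth was not tested. There 1 D-CAN cell held 1348 of the 6871 Ccl5 UMIs. The gene was found in 40 of 87 dendritic-like cells of D-CAN, against 87 of 162 of control.

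Tumor libraries held few transcripts of these genes. All 9 genes with at least 20 UMIs were lower in CPM in the tumor than in SAT by 2-fold or more, under both treatments, beside 29% of 13420 genes in control and 27.7% of 13403 genes in D-CAN. Their median log2 ratio was -6.11 and -4.93, and that of all genes -0.15 and -0.07. Gzma, Prf1, Klrb1c and Ncr1 reached 20 UMIs through SAT alone under both treatments. So did Ctsw and Klrd1 in control and Gzmb in D-CAN, so the counts are set in part by the filter. In whole libraries fewer cells of a type and less RNA per cell cannot be told apart, and T and NK clusters were 27 and 28 tumor cells against 858 and 819 SAT cells.

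Nkg7 was found in 263 SAT control and 272 SAT D-CAN cells (721 and 882 UMIs) and in 10 tumor control and 8 tumor D-CAN cells (23 and 33 UMIs). The tumor over SAT ratios were -6.37 (-7.07 to -5.80) and -5.79 (-6.36 to -5.31). Ncr1 had 114 and 121 UMIs in SAT and 2 and 5 in the tumors, or -6.95 (-10.32 to -5.38) and -5.54 (-7.32 to -4.41). Klrb1c had no UMI in either tumor library and 29 and 44 in SAT, at least 26.0-fold and 30.9-fold lower in CPM. The 0 of 2761 and 0 of 1487 tumor cells allow shares with a Klrb1c UMI of up to 0.109% and 0.202%.

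Klrd1 was at -6.60 and -4.50, Ctsw at -6.11 and -5.04, Ccl5 at -4.49 in both, Gzma at -4.50 and -3.77, and Prf1 at -3.54 and -4.93. Gzmb was the closest between tissues. It had 62 and 22 UMIs in SAT and 28 and 18 in the tumors, in 27, 10, 6 and 6 cells, and its ratios were -2.56 (-3.27 to -1.91) and -1.36 (-2.35 to -0.40). Cancer-like cells, 44.8% and 45.1% of tumor cells at 11445 and 18448 UMIs per cell, fill the tumor total. Taken as the mean of CPM per cell, which weights cells equally, Gzmb was -0.84 and 0.66, the latter in the other direction, and Nkg7 -3.98 and -3.66.

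**Figure D5:**
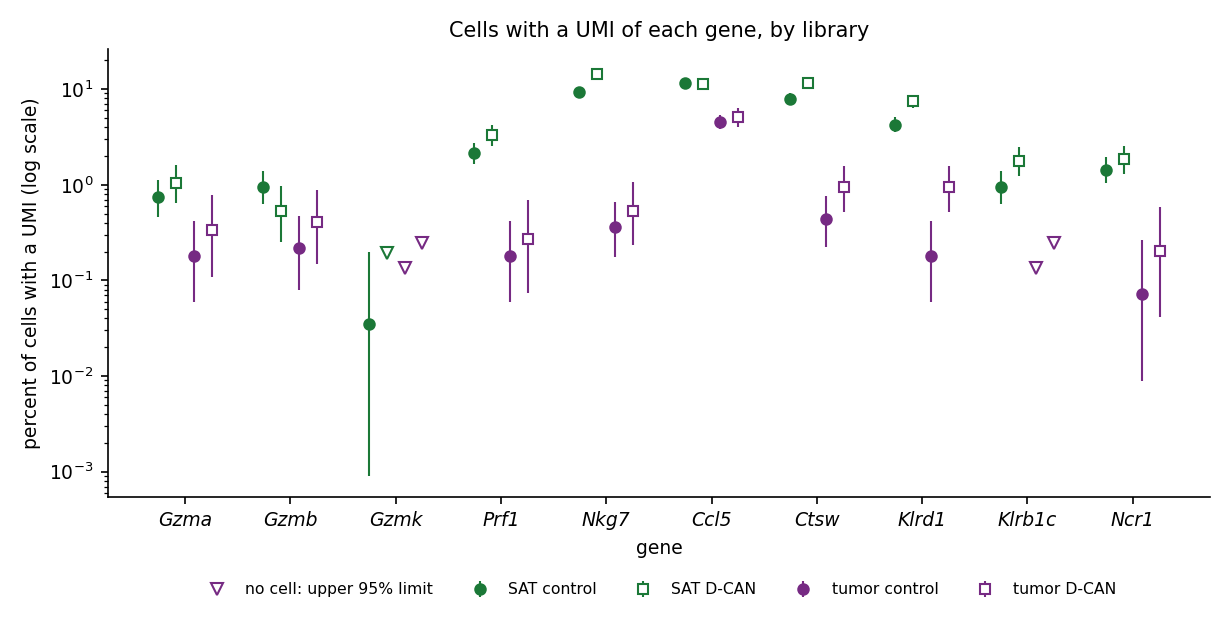
Percent of all cells with at least 1 UMI of each of the 10 genes (log axis) in SAT (green) and tumor (purple), control (filled circles) and D-CAN (open squares), with exact 95% binomial intervals. Open triangles are upper limits where no cell had a UMI. Nkg7 is found in 9.26% and 14.3% of SAT and 0.362% and 0.538% of tumor cells, and Ccl5 in 11.7% and 11.2% against 4.56% and 5.11%.

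Cells with several of the genes were rare in the tumors. Ccl5 was left out here, since other cells carry it. At least 3 of the other 9 genes were found in 86 SAT control cells (3.03%, 2.43 to 3.73), 99 SAT D-CAN cells (5.22%, 4.26 to 6.32), 4 tumor control cells (0.145%, 0.0395 to 0.371) and 8 tumor D-CAN cells (0.538%, 0.233 to 1.06). Per T and NK cell the shares were closer, at 9.67% (7.78 to 11.9) and 12% (9.82 to 14.4) in SAT and 11.1% (3 of 27, 2.35 to 29.2) and 25% (7 of 28, 10.7 to 44.9) in the tumors. Each tumor interval contains the SAT share of the same treatment. These shares are not thinned, and tumor cells of the unnamed T and NK clusters had medians of 747.5 and 903 UMIs per cell against 2354.5 and 3194 in SAT.

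Of the 12 such tumor cells, 3 were in the NK-like, 1 in the CD8 T-like and 6 in other T and NK clusters. The other 2 lay in the cancer-like class, with 110 Krt8 UMIs, and in the macrophage-like class, with 27 Lyz2 UMIs. The richest was an NK-like tumor control cell of 2229 UMIs with 13 of Gzmb, 7 of Prf1, 5 of Gzma, 5 of Nkg7 and 1 of Ncr1. It had no Tyrobp UMI and 1 UMI of a T marker. The NK-like cells of tumor D-CAN had 1 and 0 Tyrobp UMIs and 4 and 6 T marker UMIs. The CD8 T-like cell, of 552 UMIs, had no UMI of Cd8a, Cd8b1 or a T marker. The names of these tumor cells thus come from their cluster and not from these markers. A tumor D-CAN cell with 8 UMIs of Cd8a and Cd8b1 had 7 of Gzmb, 5 of Gzma, 6 of Nkg7 and 38 of Ccl5 but none of Prf1. A pair of tumor D-CAN cells had Ncr1, Prf1, Nkg7, Klrd1 and Ctsw with 6 and 7 Tyrobp UMIs and neither Gzma nor Gzmb.

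Between the tumor libraries, Klrd1 had 5 UMIs in control and 21 in D-CAN, a log2 ratio of 2.17 (0.82 to 4.03). Of these Klrd1 UMIs, T and NK clusters held 20% in control and 57.1% in D-CAN, and dendritic-like cells 40% and 33.3%. Prf1 had 16 and 5 UMIs (-1.39, -3.28 to 0.04), of which 7 in control were in 1 cell, and Nkg7 had 23 and 33 (0.71, -0.09 to 1.56). Ccl5 was higher in D-CAN by 0.71 (0.56 to 0.86), where 1 cell held 126 of the 845 UMIs and the top 5 cells 44.4%. The share of cells with Ccl5 was 4.56% in control and 5.11% in D-CAN. For Gzma the count was 11 in each, and for Gzmk and Klrb1c it was 0 in each.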

How the data were processed

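Single-cell RNA was measured in 4 10x 3′ libraries, 1 each of tumor and SAT SVF cells from control and D-CAN mice. The authors counted UMIs with Cell Ranger 3.1.0 (1 file header names 3.0.2) and STAR 2.6 on mm10 with Ensembl 93 genes, and deposited raw UMI counts per gene and cell. The libraries held 6667064 (SAT control), 7444729 (SAT D-CAN), 17996284 (tumor control) and 15672787 (tumor D-CAN) UMIs.

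Cells with at least 200 genes were clustered with Seurat (5.3.0, R 4.3.3) on 2000 variable genes without the 10 genes, with 10 principal components and resolution 0.8, and T and NK clusters were clustered again. Clusters were named from marker lists. A marker counted as detected in at least 10% of a cluster's cells and at 25% or more of its highest cluster level. An NK-like cluster needed 6 NK markers, and a CD8 T-like cluster Cd8a or Cd8b1 in 40% and Cd4 in at most 5% of cells. No doublet caller was run, and leaving out cells of mixed lineage was an alternative. The genes, lists and thresholds were chosen with earlier results of these data known.

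UMIs were summed per class and library (Python 3.11.15, scipy 1.17.1, numpy 2.4.6). CPM have exact Poisson, shares Clopper-Pearson and ratios exact conditional intervals, at 95%. Ratios had 0.5 UMI added and needed 20 UMIs over both sides to be counted, and a count of 0 was bounded at 3. Likeness used log2 of CPM plus 10, over genes with at least 50 UMIs in T and NK cells. All 10 genes are named, and of 44 pathway genes the 3 highest and 3 lowest of each class comparison. Scripts were tested on simulated counts. Alternatives were 500 genes per cell, at most 20% mitochondrial UMIs, marker gates, resolutions 0.4 and 1.2, 20 components, the genes among the variable genes, other totals, means per cell, thinning to 500 or 2000 UMIs and minimums of 5 or 50 UMIs. The split of NK-like cells by Cd3 or Trac, the CD8 gate within the CD8 T-like cluster and leaving out the top cell were added after seeing the data.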

Additional observations from a re-analysis of the deposited data

Results flagged for a closer look

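Ccl5 went opposite ways in the 2 cytotoxic classes of SAT between D-CAN and control. On the log2 scale the D-CAN value minus the control value was 0.44 in NK-like cells (interval 0.30 to 0.58) and -0.16 in CD8 T-like cells (-0.30 to -0.02). Both intervals exclude 0, but they take UMIs as independent. Single cells held up to 96 Ccl5 UMIs in NK-like and 63 in CD8 T-like cells. The difference between the classes was not tested, since each class had 1 library per arm. The levels behind it were 6969 and 9464 CPM in NK-like and 2008 and 1796 CPM in CD8 T-like cells. Clustering with 20 principal components gave 0.24 and 0.33, so the opposite direction rests on which cells the CD8 T-like cluster takes.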

How the results depend on the processing

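No paired analysis was possible because each tissue and treatment had 1 library, so no replicate numbers were shared and the values come from no test. A fit of tissue with treatment as a block, which leaves 1 residual degree of freedom, was not run. Of 696 values, 629 counted as the same, 65 as moved and 2 as reversed. A ratio or share counted as the same if it lay within the counting interval of its main value. A count of genes past 2-fold did so within a set factor. Only ratios whose main interval excluded 0 could count as reversed, so other ratios could change sign and count as the same. The reversed ones were Ccl5 in CD8 T-like cells, D-CAN over control (0.33 with 20 principal components), and Gzmb, tumor over SAT in D-CAN (0.66 as a mean of CPM per cell). Depth sets co-detection. CD8 T-like cells with at least 3 genes were 42% at 2000 UMIs and 69.6% without thinning in SAT control, and 4.21% at 500, 30.5% at 2000 and 62.1% without thinning in SAT D-CAN. With the marker gate they were 5.47% and 7.31%, and in D-CAN 10.9% with the CD8 gate within the cluster and 10.9% with 20 components. NK-like cells with at least 3 genes were 51.2% at 500, 96.7% at 2000 and 95.1% without thinning in control, 90.9% there without Cd3 or Trac UMIs, and 96.7% without thinning in D-CAN.

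Class sizes depend on their definition. NK-like cells were 0.845% and 0.843% of SAT control and D-CAN without Cd3 or Trac UMIs and 0.422% and 0.527% by the marker gate, which took none of the NK-like cells, since each had a UMI of a T marker. CD8 T-like cells were 1.97% and 3.37% with the CD8 gate within the cluster, 7.88% and 12.4% by the gate, and 3.75% in control with 500 genes per cell, where cells with at least 3 of 9 genes were 4.18%. Genes past 2-fold between D-CAN and control became 1 in CD8 T-like cells at a minimum of 5 UMIs and 1 (Gzma) in NK-like cells without the top cell. At resolution 0.4 no cluster met the NK-like or CD8 T-like rule, so no value was had. Tumor over SAT values have no version by class, as the tumors had under 20 such cells.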
